A study of Homo sapiens with 9 samples.

Results

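The genes described here encode the proteins of the cytosolic ribosome. They were taken as every row of both count tables named RPL or RPS followed by a number, RPLP or RPSA, without ribosomal protein S6 kinases, RPS4Y genes, RPS19BP1, RPS27L and hyphenated names. This gave 85 of 16008 genes listed in both tables, 53 of the large subunit (60S) and 32 of the small subunit (40S), 8 of them named as paralogs of another member. RNA-Seq libraries came from subcutaneous xenografts of PC3, a human prostate cancer cell line from a bone metastasis, grown in male NSG mice that were 11 weeks old when injected. NSG mice lack mature lymphocytes but keep other host cells. Once tumors reached 90 mm3, mice received weekly retro-orbital vehicle (PBS, no conjugate), patritumab deruxtecan (P-DXd, an antibody to HER3) or trastuzumab deruxtecan (T-DXd, an antibody to HER2) at 5 mg/kg for 5 cycles per the series record, and tumors were taken at endpoint, with 3 libraries per group. Both antibodies carry deruxtecan, a topoisomerase I inhibitor. Titles and treatment fields name opposite conjugates for the 6 treated libraries, so the groups take their names from titles alone (P-titled for P-DXd, T-titled for T-DXd), and all 6 were also compared with PBS together. The study's methods for this experiment give another age, starting volume and number of cycles than the series record.

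Each ribosome joins ribosomal RNA to one copy of most of these proteins, so their mRNAs are among the most abundant in a dividing cell. Most of these mRNAs begin with a 5′ TOP motif, a C followed by a run of pyrimidines, through which mTORC1 and LARP1 set how much of the mRNA is translated or stored. Before use, many of the new proteins are carried to the nucleolus and fitted onto ribosomal RNA, most of it made by RNA polymerase I. Assembly factors and, for some proteins, dedicated chaperones help in this.

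RefSeq promoter windows were available for 67 of the 85 genes. A C at an annotated start followed by at least 4 pyrimidines was found in 47 of these (70.2%). The share was 6.62% of the other listed genes with a window and 5.14% of all 27305 genes with a window. A gene with several annotated starts counted if any of them had the motif. The windows below cover 15 bases on each side of the start on GRCh38.p14 and are shown as examples for 8 genes above 10 CPM described below as higher or lower in treated xenografts, with the pyrimidine run from the start in capitals.
RPS27, chr1:153990747-153990776, plus strand: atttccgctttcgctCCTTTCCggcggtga
RPL31, chr2:101002274-101002303, plus strand: acaatccttcgcgctCTTCCTTTCCaactt
RPL13A, chr19:49487593-49487622, plus strand: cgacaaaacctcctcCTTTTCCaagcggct
RPS19, chr19:41860240-41860269, plus strand: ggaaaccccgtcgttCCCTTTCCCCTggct
RPSA, chr3:39406705-39406734, plus strand: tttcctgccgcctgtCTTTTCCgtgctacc
RPL4, chr15:66504841-66504870, minus strand: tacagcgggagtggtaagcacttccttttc
RPL7L1, chr6:42879601-42879630, plus strand: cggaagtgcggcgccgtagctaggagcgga
RPS7, chr2:3575245-3575274, plus strand: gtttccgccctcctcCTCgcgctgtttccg
The motif was present at the start of RPS27, RPL31, RPL13A, RPS19 and RPSA and was not at the annotated start of RPL4, RPL7L1 or RPS7. RPL4 holds a pyrimidine run further into its window, so the annotated start decides this reading.

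Total counts were between 54481702 and 125538606 per library. PC3 identity was checked by KRT8, KRT18, KRT19, EPCAM and CDH1, which were listed in all 9 libraries. Their sum was 1633, 2065 and 2335 CPM (counts scaled to library size) in PBS replicates 1 to 3 and 3145 to 3682 CPM in treated libraries, with no overlap and the lowest value in PBS replicate 1. Markers of other cells differed between libraries. The sum of 12 skeletal muscle genes was 13.6 to 63.8 CPM in PBS, 4693 CPM in P-titled replicate 2 and 115 to 304 CPM in the other treated libraries. The sum of 9 fibroblast genes was 1053 to 2020 CPM in PBS and 1233 to 2237 CPM in treated libraries, with COL1A1, COL1A2 and DCN among them, and macrophage and endothelial sums were 16.4 CPM or less. Although the fibroblast sums overlapped, 5 of the 9 genes rose past 1.5-fold and 0 fell for both conjugates (median log2 fold change 0.84). By this rule 32.2% of all genes were called in either direction. Without PBS replicate 1, 6 rose past 1.5-fold and 7 at any fold (median 1.13), when 28.5% of all genes rose at any fold. The tables do not separate human from mouse reads, and ribosomal protein sequences are nearly the same in both species. The part of host reads and of these marker differences in the levels below was not tested. In bulk tumors, fewer cells of a type and less RNA per cell cannot be told apart.

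PBS replicate 1 stood apart in these genes. Relative to PBS replicates 2 and 3 it was higher for 81 of 85 genes, by a median of 0.41 on the log2 CPM scale. The median over all genes with a mean log2 CPM of at least 3 differed by -0.02. The scaling of libraries (TMM) holds most genes near level, so that median cannot show that the difference was limited to these genes. Over all genes, the chi-square per gene was 320.6 and 395.7 for PBS replicate 1 against replicates 2 and 3. Between replicates 2 and 3 it was 38.03. PBS replicate 1 was the highest of the PBS libraries for 80 of the 85 genes and the highest of all 9 libraries for 59. Other measures were also higher in PBS replicate 1. The sum of 6 cycling genes was 1487 CPM against 982 and 899 CPM in the other PBS libraries, that of 37 ribosome assembly factors was 8519 against 6355 and 5903 CPM, and that of the fibroblast genes was 2020 against 1135 and 1053 CPM. Their part in the difference was not tested. Results below are therefore given with and without this library. Because it was singled out for high levels of these same genes, leaving it out moves their fold changes up by construction. Rises called only without it are therefore no independent evidence of a rise.

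Ribosomal protein genes held between 3.64% and 4.68% of all counts on genes in both tables. In replicate order, the share was 4.68%, 3.71% and 3.65% for PBS, 3.64%, 4.12% and 3.77% for P-titled, and 3.79%, 3.84% and 4.16% for T-titled libraries. PBS replicate 1 was the highest and the other PBS libraries were among the lowest, and the groups overlapped. Means were 4.01% ± 0.578 in PBS, 3.84% ± 0.248 in P-titled and 3.93% ± 0.199 in T-titled xenografts (SD, n = 3), so the differences were smaller than the spread between PBS libraries. Without PBS replicate 1 the PBS mean was 3.68%, and the difference of the treated mean from PBS turned from -0.13 to 0.21 percentage points. The 95% Wilson interval of each share was at most 0.00528 percentage points to either side, which covers counting error only.

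**Figure D1:**
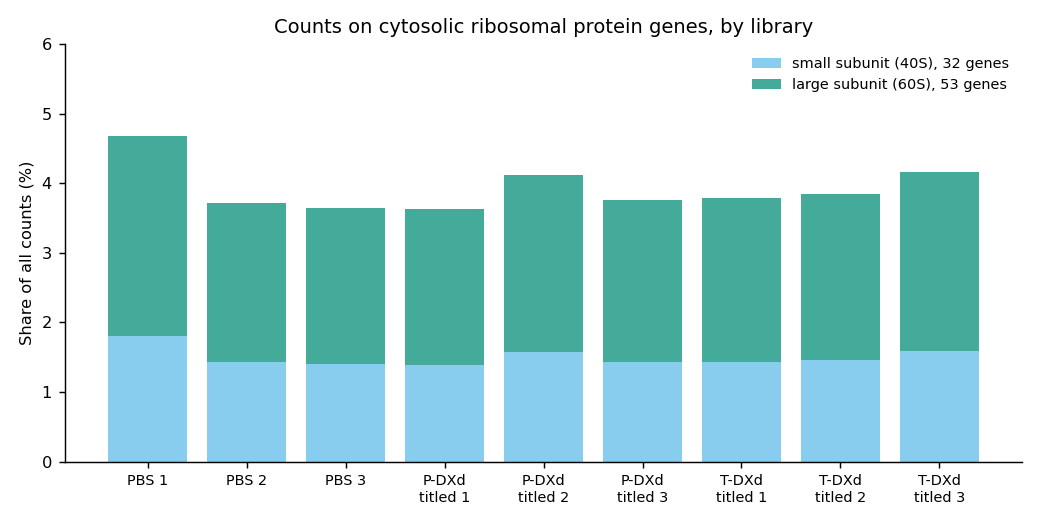
Share of all counts on cytosolic ribosomal protein genes in each library, in percent, stacked by subunit (40S, 32 genes; 60S, 53 genes). PBS 1 reaches 4.68%, whereas PBS 2 and 3 lie at 3.71% and 3.65%, within the 3.64% to 4.16% of the treated libraries.

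The balance between subunits differed in direction from the share. Counts on 60S genes per count on 40S genes were 1.58, 1.59 and 1.60 for PBS in replicate order, including the library that stood apart. The ratio was 1.62, 1.62 and 1.62 in P-titled and 1.66, 1.64 and 1.63 in T-titled libraries. Every treated library was above every PBS library, by a small margin and with no test made of this sum over genes. Abundant genes weigh most in such a sum, and medians over genes did not go the same way. The median log2 fold change of both conjugates was -0.05 (40S) and -0.06 (60S), and 0.17 and 0.09 without PBS replicate 1.

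Levels spanned the members widely. Mean CPM over all libraries was at least 10 for 78 genes and at least 1000 for 8, with a median of 412. Per kilobase of coding sequence, so that genes can be compared, the highest were RPL41 (7428 CPM per kilobase, with a coding sequence of only 78 bases), RPS24 (4527) and RPL8 (2693). The median was 812 CPM per kilobase. The 7 genes with a mean under 10 CPM included RPL36A, RPS10, RPL17, RPL10L and RPL3L. Of these, RPL36A and RPL17 overlap the listed readthrough genes RPL36A-HNRNPH2 and RPL17-C18orf32. GENCODE v44 names 1600 pseudogenes of the family, 30 members overlap another listed gene, and strand use in counting is not given in the sources used here. Levels of such genes are uncertain.

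**Figure D2:**
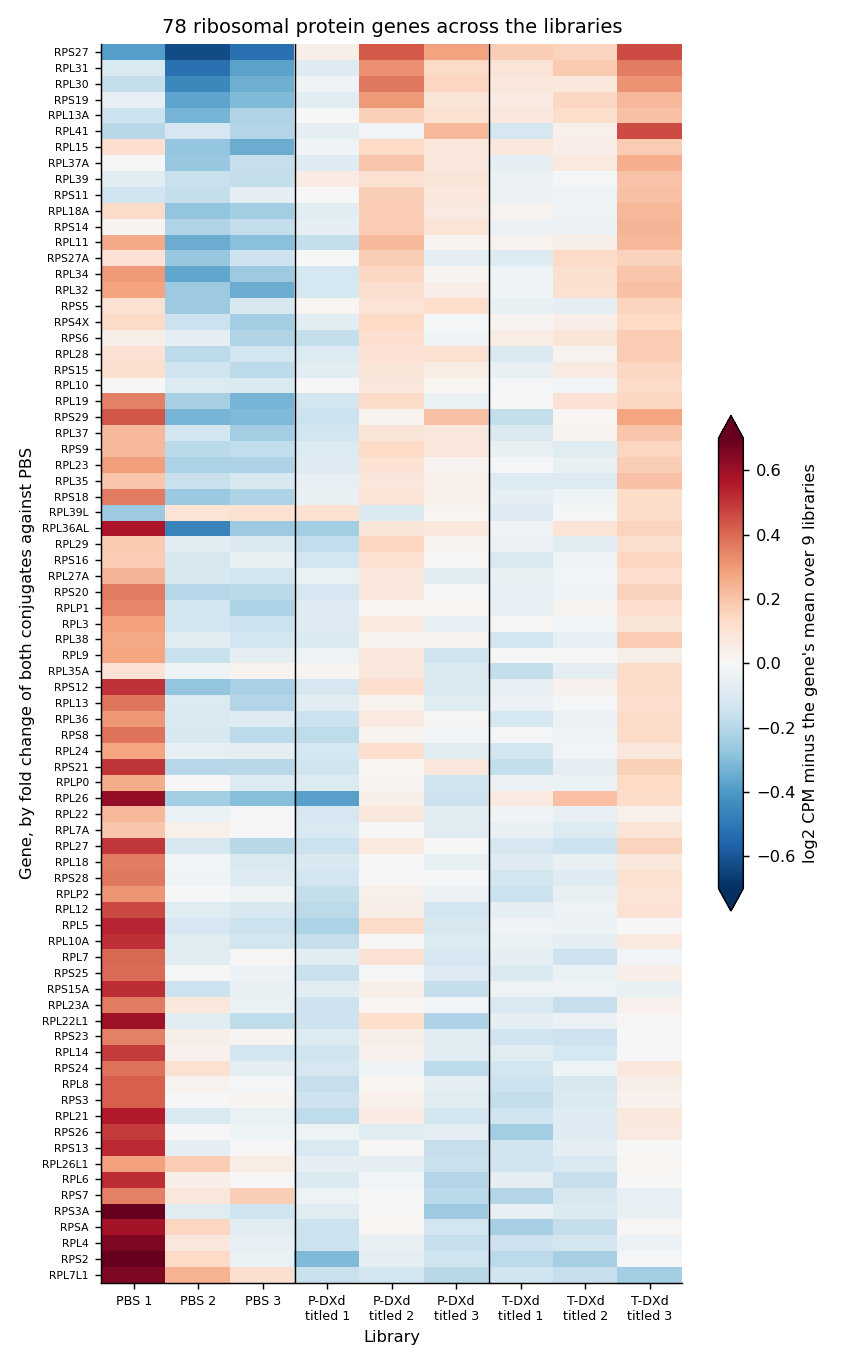
Heat map of 78 ribosomal protein genes with a mean of at least 10 CPM (rows, ordered by fold change of both conjugates against PBS) in 9 libraries (columns). Color is log2 CPM minus the gene's mean over all libraries, and red is higher. PBS 1 is red over most rows, while the top rows led by RPS27 are blue in all PBS libraries and the bottom row, RPL7L1, is red in all PBS libraries.

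The first comparison asked how residual tumors differed from vehicle. Ribosomal protein genes changed little: RPS27 was the only one above 10 CPM past both an adjusted p of 0.05 and a fold change of 1.5. In P-titled xenografts 2 of 85 were called by this rule, RPS27 higher and RPL36A lower, when 25% of all genes tested were called. In T-titled xenografts 4 were called, among them RPS27 higher and RPL36A and RPS10 lower, with 28.6% of all genes called. With both conjugates together 4 were called (RPS27 and RPL10L higher, RPL36A and RPS10 lower), with 32.2% of all genes called. The log2 fold change lay within 1.5-fold in 79 of 85 members (92.9%) and in 61.7% of all genes tested. Among genes at least as abundant as the lower quartile of members, 73.9% lay within 1.5-fold.

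The direction of the family depended on PBS replicate 1. With all libraries, the median log2 fold change of members was -0.07 in P-titled, -0.04 in T-titled and -0.06 in both conjugates against PBS, beside medians over all genes of -0.01, -0.02 and -0.01. For both conjugates 52 members lay below 0 and 33 above. Without PBS replicate 1 the medians were 0.09, 0.11 and 0.12, and 60 members lay above 0 and 25 below. The medians over all genes were then 0.01, 0.00 and 0.01, and those over genes at least as abundant as the lower quartile of members were 0.09, 0.07 and 0.11, close to the members' values, beside 0.04, 0.02 and 0.06 with all libraries. By subunit, the medians for both conjugates were -0.05 (40S) and -0.06 (60S) with all libraries, and 0.17 and 0.09 without PBS replicate 1.

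With no fold change minimum, edgeR's quasi-likelihood test at an adjusted p of 0.05 called 2 members higher (16% of all genes) and 2 lower (17.9%) in P-titled xenografts. It called 6 higher (19.9%) and 4 lower (22.3%) in T-titled xenografts. For both conjugates it called 7 higher (27%) and 10 lower (28.7%), so members were called in either direction less often than genes at large. Without PBS replicate 1, which was singled out by these same genes, the calls turned to rises. There were 15 higher (22.2%) and 2 lower (21.8%) in P-titled and 28 higher (29.6%) and 6 lower (29.8%) in T-titled xenografts. For both conjugates there were 27 higher (28.5%), 15 of the 60S and 12 of the 40S subunit, and 6 lower (27.9%). All 7 rises called with all libraries were among the 27, and 6 of the 10 falls were called again. Thus the share of members that rose came near that of all genes once PBS replicate 1 was left out, and the share that fell stayed below it. All 6 treated libraries were above all PBS libraries for 7 members (26.2% of all genes) and below them for 6 (24.4%).

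**Figure D3:**
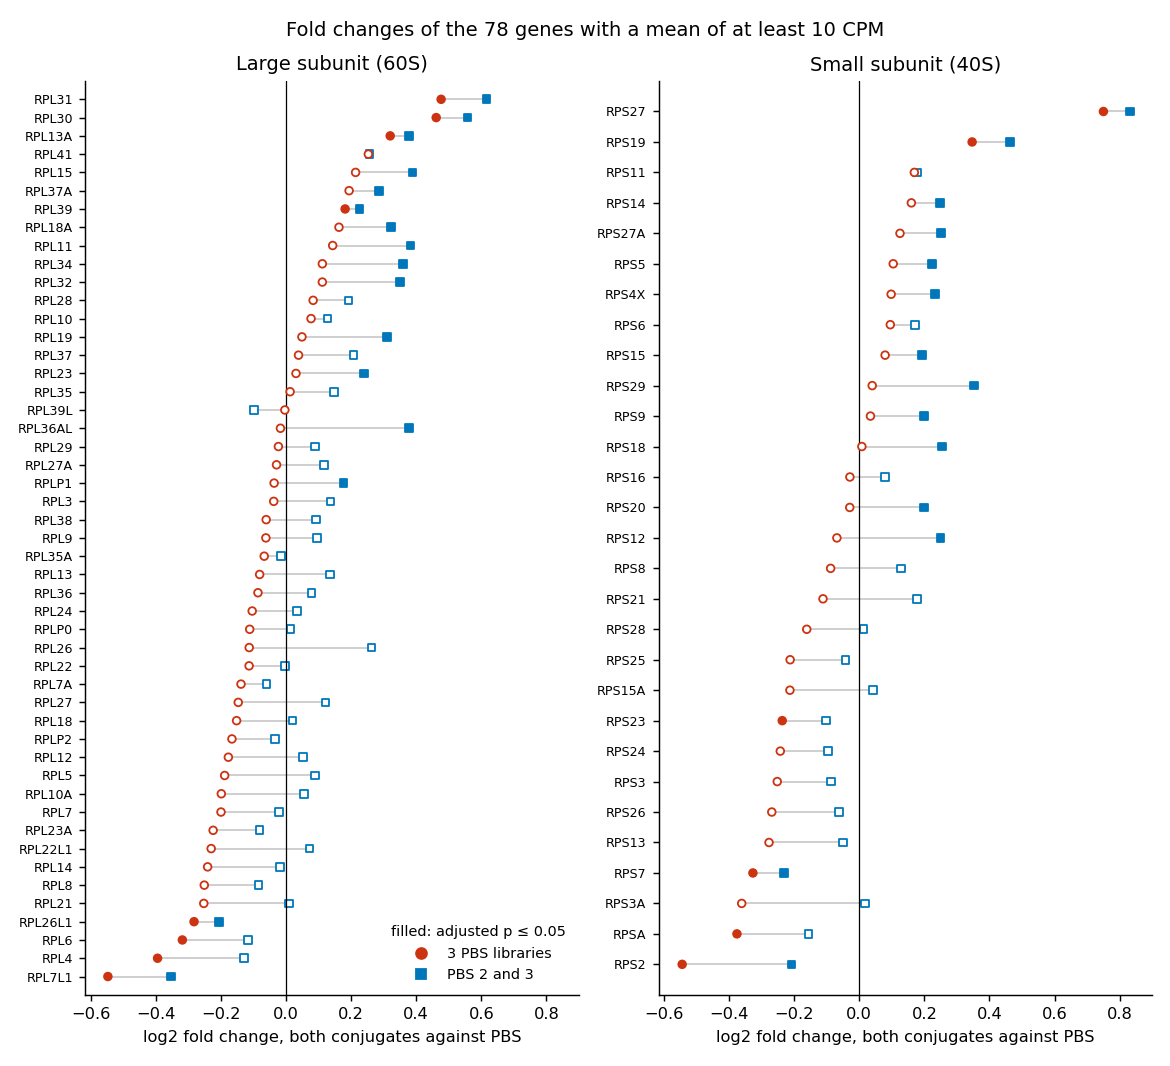
Log2 fold change of both conjugates against PBS for 78 genes, with all 3 PBS libraries (circles) and with PBS 2 and 3 only (squares), by subunit. Filled symbols have an adjusted p at or below 0.05. Leaving out PBS 1 moves most genes to the right, RPS27 lies highest at 0.75 and 0.83, and RPL7L1 lies lowest of the 60S genes at -0.55 and -0.35.

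RPS27, a zinc finger protein of the 40S subunit (ENSG00000177954.7, chromosome 1, 153963235 to 153964626 as listed, on a build the tables do not name), was the member that rose most. It was at 316, 268 and 287 CPM in PBS, 425, 557 and 502 CPM in P-titled and 465, 461 and 567 CPM in T-titled libraries. Every treated library was above every PBS library. Its log2 fold change was 0.76 ± 0.13 (SE) in P-titled (adjusted p = 0.0069), 0.76 ± 0.12 in T-titled (adjusted p = 0.0036) and 0.75 ± 0.11 in both conjugates against PBS (adjusted p = 0.00021). It passed this test in every alternative tried, with a log2 fold change of 0.69 to 0.83 for both conjugates.

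A few 60S and 40S proteins rose with RPS27 by less than 1.5-fold. RPL30, which binds kink-turn RNA in the 60S subunit, was at 562, 462 and 499 CPM in PBS, 622, 817 and 701 in P-titled and 665, 665 and 786 in T-titled libraries (log2 fold change of both conjugates 0.46 ± 0.11, adjusted p = 0.0038). RPL31, which lies near the exit of the nascent chain, was at 292, 219 and 242 CPM in PBS, 296, 393 and 345 in P-titled and 335, 357 and 404 in T-titled libraries (0.48 ± 0.12, adjusted p = 0.0060). Neither gene overlapped between treated and PBS libraries, although the lowest treated library of RPL31 was close to PBS replicate 1. RPL13A, also known to leave the ribosome and silence interferon-induced mRNAs, was at 1316, 1164 and 1260 CPM in PBS and 1462 to 1681 CPM in treated libraries (0.32 ± 0.07, adjusted p = 0.0043). RPS19, the protein most often mutated in Diamond-Blackfan anemia, was at 495, 398 and 415 CPM in PBS and 490 to 634 CPM in treated libraries (0.35 ± 0.10, adjusted p = 0.013), with overlap between 1 treated library and PBS replicate 1. Without PBS replicate 2 or with offsets for transcript length and GC content RPS19 did not pass. RPL30, RPL31 and RPL13A passed for both conjugates in every alternative, while against single conjugates each lost its call without PBS replicate 2, and RPL30 (P-titled) and RPL13A also without PBS replicate 3. Calls in T-titled xenografts were lost without T-titled replicate 2 or 3, for RPL30 and RPL13A also without T-titled replicate 1, and that of RPL30 in P-titled xenografts without P-titled replicate 2 or 3. RPS19 lost its call in T-titled xenografts without PBS replicate 2 or 3 or any T-titled library. A block on a digit of the animal code ended each of these single-conjugate calls, and length and GC offsets ended those of RPL13A and RPS19.

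Among members above 10 CPM, RPL7L1, an RPL7-like protein of 60S assembly, had the lowest log2 fold change for both conjugates. It was at 278, 209 and 191 CPM in PBS, 158, 162 and 154 in P-titled and 160, 158 and 150 in T-titled libraries. Treated libraries lay close together and below every PBS library. Its log2 fold change was -0.52 ± 0.15 in P-titled (adjusted p = 0.035), -0.55 ± 0.15 in T-titled (adjusted p = 0.024) and -0.55 ± 0.10 in both conjugates against PBS (adjusted p = 0.0013), and -0.35 without PBS replicate 1 (adjusted p = 0.00026). The fall in P-titled xenografts was lost without PBS replicate 2 or any P-titled library, and that in T-titled xenografts without any T-titled library or with a block on a digit of the animal code. Both were also lost with offsets for transcript length and GC content. RPS7, needed to process small subunit RNA, was at 425, 352 and 375 CPM in PBS and 289 to 332 CPM in treated libraries (-0.33 ± 0.08, adjusted p = 0.0051, both conjugates). RPL26L1, a near copy of RPL26, was at 62.0, 57.3 and 52.6 CPM in PBS and 45.4 to 51.2 CPM in treated libraries (-0.28 ± 0.07, adjusted p = 0.0063). Both fell again without PBS replicate 1 (adjusted p = 0.011 and 0.015).

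Other falls rested more on PBS replicate 1. RPS2, a 40S protein near the mRNA entry channel, was at 1137, 697 and 612 CPM in PBS and 511 to 626 CPM in treated libraries, and the log2 fold change of both conjugates went from -0.54 ± 0.17 (adjusted p = 0.017) to -0.21 (adjusted p = 0.047) without that library. RPL4, which lines the exit tunnel, was at 921, 620 and 562 CPM in PBS and 525 to 569 CPM in treated libraries. Its log2 fold change went from -0.39 ± 0.13 (adjusted p = 0.027) to -0.13 (adjusted p = 0.096). RPSA, a 40S protein also known as the laminin receptor, was at 1262, 937 and 802 CPM in PBS and 719 to 853 CPM in treated libraries, and went from -0.38 ± 0.13 (adjusted p = 0.028) to -0.16 (adjusted p = 0.13). RPL6 (-0.32, adjusted p = 0.033) and RPS23 (-0.24, adjusted p = 0.040), singled out after their values were seen, also passed only with PBS replicate 1 included. RPL4, RPL6, RPS23 and RPSA lost the call on leaving out P-titled replicate 3 or T-titled replicate 2 as well. RPS3A had the fourth largest fall in P-titled xenografts (-0.36, adjusted p = 0.29), with 356 CPM in PBS replicate 1 and 174 to 208 CPM in all other libraries.

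**Figure D4:**
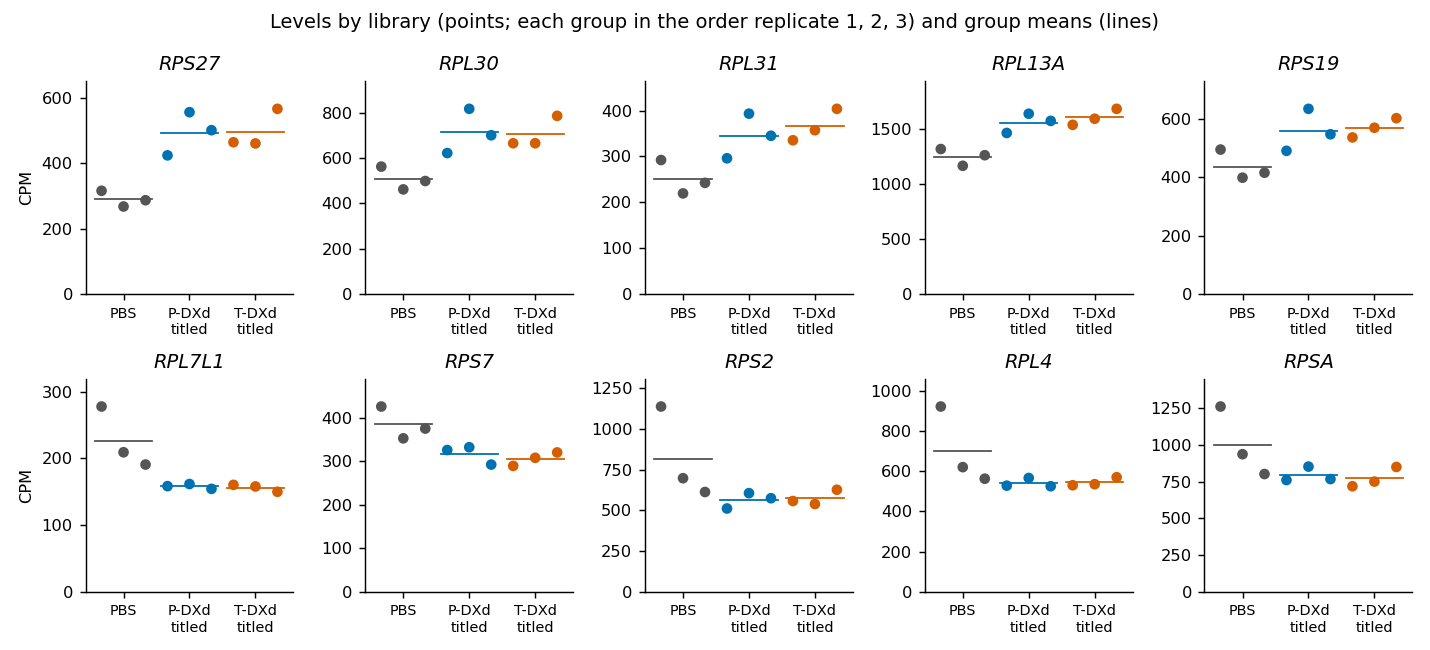
Levels in CPM of 5 genes that rose (top row) and 5 that fell (bottom row), with 1 point per library and lines at group means. Treated points lie above all PBS points for RPS27, RPL30, RPL31 and RPL13A and below them for RPL7L1 and RPS7, while RPS2, RPL4 and RPSA show 1 high PBS point, replicate 1.

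With all PBS libraries, the members with fixed roles given here did not pass at any fold. RPSA and RPL39, also fixed by role, passed for both conjugates and are described apart. The stalk that recruits elongation factors is built from RPLP0, RPLP1 and RPLP2. RPLP0 was at 1181 to 1511 CPM in PBS and 1144 to 1389 CPM in treated libraries, and log2 fold changes of both conjugates were -0.11 ± 0.10, -0.04 ± 0.12 and -0.17 ± 0.09 (adjusted p = 0.34, 0.81 and 0.15). RPL5 and RPL11 join 5S ribosomal RNA and bind MDM2 when ribosome assembly fails. RPL5 was at 888, 565 and 552 CPM in PBS and 525 to 672 CPM in treated libraries (-0.19 ± 0.15, adjusted p = 0.29). RPL11 was at 509, 334 and 346 CPM in PBS and 378 to 497 CPM in treated libraries (0.14 ± 0.14, adjusted p = 0.41), and without PBS replicate 1 it rose (0.38, adjusted p = 0.0047). RPS6, the substrate of S6 kinase, was at 380 to 452 CPM in PBS and 391 to 497 CPM in treated libraries (0.10 ± 0.09, adjusted p = 0.38). RPS27A, made as a fusion with ubiquitin, had a log2 fold change of 0.13 ± 0.10 (adjusted p = 0.30) and X-linked RPS4X one of 0.10 ± 0.09 (adjusted p = 0.39). RPL10, which completes 60S maturation, was the steadiest of these at 911 to 1073 CPM over all libraries (0.08 ± 0.07, adjusted p = 0.35). Without PBS replicate 1, RPLP1, RPS27A and RPS4X were also called higher for both conjugates at any fold, when 28.5% of all genes were. RPS6 was then called higher in T-titled xenografts only, when 29.6% of all genes were.

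RPL39, a short protein of the exit tunnel, was at 220 to 234 CPM in PBS and 241 to 284 CPM in treated libraries (0.18 ± 0.07, adjusted p = 0.043), a call lost in 8 of 17 alternatives. Its paralog RPL39L, best known from testis, was at 27.7 to 32.5 CPM in treated libraries, with every PBS library within or just below this range (-0.00 ± 0.09, adjusted p = 0.98).

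Other paralog pairs were compared as counts of the paralog per 100 counts of its parent. RPL7L1 was 18.5, 19.5 and 16.7 per 100 counts of RPL7 in PBS and 13.2 to 15.4 in treated libraries, with no overlap, while RPL7 itself was at 1075 to 1501 CPM in PBS and 1027 to 1222 CPM in treated libraries (log2 fold change -0.20, adjusted p = 0.14). RPL22L1 was 5.51 to 7.93 per 100 counts of RPL22 in PBS and 5.62 to 6.40 in treated libraries. RPL26L1 had more counts than RPL26, at 184 to 307 per 100 counts, with overlap between the groups. RPL26 itself was low at 17.9 to 33.7 CPM in PBS. It overlaps the listed gene RP11-849F2.7, so its level and this ratio are uncertain, and the part of the overlap was not tested. RPL36AL was at 104 to 212 CPM in PBS and 121 to 159 CPM in treated libraries (-0.02 ± 0.19, adjusted p = 0.94). It rose when PBS replicate 1 was left out (0.38, adjusted p = 0.0060). Per 100 counts of RPL36A, RPL36AL was 2918, 2808 and 3413 in PBS and 7170 to 13261 in treated libraries, with no overlap. RPL36A itself was under 10 CPM and fell, as described below. It overlaps a listed readthrough gene, so this ratio is uncertain too.

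Low members gave most of the calls past 1.5-fold. RPL36A was at 7.27, 3.70 and 3.52 CPM in PBS, 1.31 or less in P-titled and 1.96, 1.60 and 1.45 in T-titled libraries (log2 fold change of both conjugates -1.75 ± 0.26, adjusted p = 0.00027). RPS10, a 40S protein beside the mRNA entry, was at 8.60, 3.66 and 3.48 CPM in PBS and 1.87 to 3.21 CPM in treated libraries (-1.19 ± 0.29, adjusted p = 0.0058). Leaving out PBS replicate 1 gave changes of -1.31 and -0.61. In T-titled xenografts RPL36A lost its call without T-titled replicate 2 or 3, and RPS10 without any 1 of the T-titled libraries. RPL10L, an intronless copy of RPL10 known from testis, was at 0.287 to 0.957 CPM in PBS and at least 0.683 CPM in treated libraries (1.32 ± 0.48, adjusted p = 0.037), with overlap, and lost the call in 7 of 17 alternatives. RPL17 was at 7.90 to 10.7 CPM in PBS and 6.03 to 8.73 CPM in treated libraries (-0.30, adjusted p = 0.11). RPL3L, the paralog of RPL3 found in striated muscle, was at 3.86 CPM in P-titled replicate 2 and at 0.0306 to 0.334 CPM in all other libraries (1.76 ± 1.41, adjusted p = 0.31). The library with RPL3L was the one with 4693 CPM of skeletal muscle genes. RPL3 was at 763 to 1031 CPM in PBS and 795 to 896 CPM in treated libraries (-0.04, adjusted p = 0.77).

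Features that the names do not give were set beside the fold changes as descriptions. Of 78 genes with a mean of at least 10 CPM, the 39 with shorter transcripts (median of protein coding transcripts up to 678 bases) had a median log2 fold change of -0.03 and the 39 with longer ones a median of -0.11. With PBS replicate 1 left out these medians were 0.18 and 0.06, and Spearman's rho between length and fold change was -0.24 with all libraries and -0.28 without PBS replicate 1 (n = 78 genes that share the same libraries). Over 14586 genes tested rho was -0.06. With offsets for length and GC content the median member fold change was -0.11 in place of -0.06. The 45 genes with a TOP start had a median of -0.07 and the 18 without one of -0.10, and 0.12 and 0.11 without PBS replicate 1. The 743 other genes tested with a TOP start had a median of 0.00.

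The second comparison asked whether the conjugates differed. P-titled against T-titled called 0 of 85 members with edgeR, when 0.0273% of all genes were called, and 0 with DESeq2. At an unadjusted p under 0.05 there were 3 members (3.53%) and 3.69% of all genes. RPL26 (-0.29 ± 0.11) was the only one of them above 10 CPM. The median difference was -0.02 on the log2 scale, and among 78 genes above 10 CPM differences ran from -0.29 to 0.06. For RPS27 the difference was -0.01 ± 0.11 and for RPL7L1 0.02 ± 0.06 (SE, adjusted p = 1.0 for both). Because both comparisons share the PBS libraries, like fold changes against PBS are not independent.

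Genes that build the ribosome were set beside those that form it, with no test of the difference between lists. Of 37 ribosome assembly factors tested for both conjugates, 17 fell and 0 rose past 1.5-fold, with a median log2 fold change of -0.55, when 32.2% of all genes were called in either direction by this rule. Examples were NOP56, a core protein of box C/D particles that methylate ribosomal RNA (344 CPM in PBS and 159 CPM in treated libraries on average, -1.14, adjusted p = 0.0010), and BOP1, a 60S assembly factor (32.4 and 15.4 CPM, -1.10, adjusted p = 5.2e-05). Of 14 RNA polymerase I genes 4 fell and 0 rose (median -0.41), a share below the 32.2% of all genes called in either direction. At any fold 10 of the 14 fell and 0 rose, when 28.7% of all genes fell. The falls were led by TAF1D (-1.18, adjusted p = 7.4e-05) and TAF1C (-1.14, adjusted p = 0.00016) of the polymerase's promoter selectivity factor. Of 10 chaperones of ribosomal proteins 4 fell and 0 rose (median -0.29), including HEATR3, which carries RPL5 and RPL11 (-1.10, adjusted p = 0.00025), and BCCIP, which carries RPL23 (-1.08, adjusted p = 0.00056). The chaperone list shares NOLC1 with the assembly factors and NAP1L1 with the TOP mRNAs below. Leaving out that PBS library, replicate 1, the counts of falls were 8, 3 and 3 and the medians -0.29, -0.31 and -0.18. At any fold, 24 of 37, 9 of 14 and 5 of 10 genes then fell and 4, 0 and 0 rose. Of all genes, 27.9% fell and 28.5% rose by that rule. The same libraries had lower cycling genes, for which 6 of 6 fell (median -2.48) and the sum was 247 to 332 CPM in treated libraries against 899 to 1487 CPM in PBS, and the part of cycling in these falls was not tested.

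By the median of each list, other parts of the translation machinery moved less. Elongation factors and other TOP mRNAs came near the chaperones, and single genes such as DDIT4 moved further. Of 75 mitochondrial ribosomal protein genes, 1 rose and 4 fell (median -0.19, and -0.04 without PBS replicate 1), with MRPS24 at 0.81 (adjusted p = 0.0012) and MRPL38 and MRPL16 at -1.16 and -0.69 (adjusted p = 0.0015 and 0.0013). Of 12 elongation factors and other TOP mRNAs 2 fell and 0 rose (median -0.24), namely HNRNPA1 (1039 and 528 CPM, adjusted p = 0.00012) and NAP1L1 (-0.73, adjusted p = 0.00027). Of 4 ribosomal proteins outside the naming rule that were tested, at any fold RPS27L, a paralog of RPS27 that is a p53 target in other cells, rose (28.9 and 38.9 CPM, 0.41 ± 0.08, adjusted p = 0.0020), GNB2L1 (RACK1) fell (-0.27, adjusted p = 0.035), and FAU did not pass (adjusted p = 0.39). GNB2L1 did not pass without PBS replicate 1 (adjusted p = 0.16), whereas FAU then did (0.31, adjusted p = 0.0047). Of 15 regulators of TOP mRNAs and mTORC1, 2 rose and 2 fell (median -0.10). SESN2 and SESN3, sestrins that restrain mTORC1, rose by 1.03 and 1.05 on the log2 scale (adjusted p = 0.00080 and 0.0035), while DDIT4, which also restrains it, fell by 1.97 (adjusted p = 8.7e-05) and EIF4EBP1, a translation repressor that mTORC1 inactivates, fell by 0.74 (adjusted p = 6.1e-05).

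**Figure D5:**
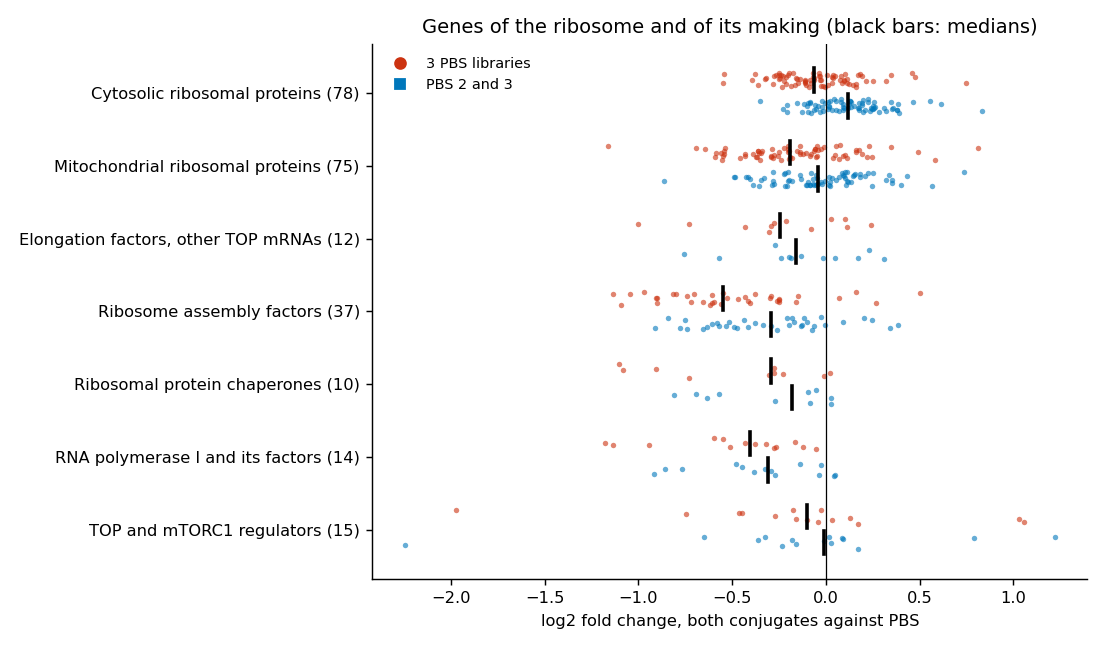
Log2 fold change of both conjugates against PBS for each gene of 7 lists (points, number of genes in brackets) with medians as black bars, using all 3 PBS libraries (upper, red) or PBS 2 and 3 (lower, blue). Assembly factors have the lowest median with all libraries (-0.55), and cytosolic ribosomal proteins (78 genes above 10 CPM) lie closest to 0 with all libraries.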

How the data were processed

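The submitters' processing notes name Cutadapt, STAR, featureCounts and DESeq2, and the authors counted mapped reads per gene with featureCounts. Raw read counts per gene are what was deposited. The study names GRCh38, but the listed coordinates of 0 of 84 members with a GENCODE v44 identifier match it. Total counts were 54481702 to 125538606 per library, and replicate pairs differed by more than sampling noise. Libraries were grouped by title and numbered in record order. Nothing says whether mice shared litters or days, so p-values measure the spread between these libraries.

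Counts were tested over all genes with edgeR 4.0.16 in R 4.3.3 (TMM, filterByExpr, two-sided quasi-likelihood F test, Benjamini-Hochberg), called at an adjusted p of 0.05 with a fold change of at least 1.5, as the study did with DESeq2, or any fold where stated. CPM used TMM over 9 libraries, and log2 CPM a prior count of 2. Members and lists were chosen with earlier results of these data known. Genes were named if called, among the 4 largest changes above 10 CPM where fewer than 4 were called, fixed by role or paralog pair, or leading another list. Alternatives were DESeq2 1.42.0, RLE factors, library size alone, other filters, 1 fit of 9 libraries, a block, offsets, and omission of each library. The method was tested on simulated data. Columns of per-sample values left unused numbered 0. A few genes are not reported here.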

Additional observations from a re-analysis of the deposited data

How the results depend on the processing

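With no fold change minimum the members called were 4 in P-titled, 10 in T-titled and 17 in both conjugates against PBS. Without PBS replicate 1 as well, an alternative chosen after seeing the data, they were 17, 34 and 33. A block on a digit of the animal code, which no source calls a batch, gave 2 calls in place of 4 in T-titled xenografts, and no paired analysis was possible because the labels give groups no shared replicate numbers. Leaving out each library in turn gave 2 to 5 calls in P-titled, 1 to 5 in T-titled and 3 to 5 in both conjugates against PBS. The lowest T-titled count came without T-titled replicate 2 or 3, and the highest P-titled count without PBS replicate 3. The medians ranged from -0.17 to 0.09, -0.13 to 0.11 and -0.15 to 0.12 on the log2 scale, each highest without PBS replicate 1, and -0.08 to 0.03 between the conjugates. The treated minus PBS share ranged from -0.31 to 0.21 percentage points. Scaling to the members' own total, also chosen after seeing the data, gave 2, 4 and 4 calls with medians of -0.02, -0.01 and -0.02. That scaling holds the members' sum level, so medians near 0 largely follow from it and say nothing on the family's direction. Other alternatives kept each count within 1.5 times and each median within the spread between libraries. For named members that passed, 398 recomputed values passed again in the same direction, 100 did not pass and none changed sign.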
